A study of Mus musculus with 6 samples.

Results

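Liver transcripts of the phosphatidylserine decarboxylase gene Pisd, of its transcribed pseudogenes Pisd-ps1 and Pisd-ps3, and of 7 enzyme genes that build phospholipid head groups were followed in the congenic mouse strain B6.C3H-6T and in C57BL/6J. The 10 genes were chosen with results of these arrays known, because probe sets of Pisd-ps3 were among those that differed most between the strains. Every probe set that the platform annotation pairs with at least 1 of these genes was taken, which gave 34 of the 45037 probe sets tested. Of the 34, 28 were paired with 1 gene and 6 with several. Values of Pisd-ps3, alone or in shared probe sets, are therefore given as a description, and neither their standing in the fit nor their intervals support anything here. The other members were read from a fit over all probe sets.

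Each array held liver RNA of 1 female mouse aged 8 weeks and fed chow, with 3 mice of B6.C3H-6T and 3 of C57BL/6J. B6.C3H-6T carries DNA of the C3H strain on chromosome 6 on the C57BL/6J background and was described by the submitters as having low serum IGF-1. The strain is a single congenic line, and the sources used here give neither the limits of its C3H segment nor any C3H DNA elsewhere. No agent was given to either strain. Signals are log2 values, so that a difference of 1 is a doubling, and a positive difference means a higher signal in B6.C3H-6T. Adjusted p-values come from limma with Benjamini-Hochberg adjustment over all probe sets. The p-values set a strain difference against the spread between the 3 mice of a strain, which limma moderates by the spread of all probe sets. Brackets after a difference hold its standard error or its 95% confidence interval.

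Phosphatidylcholine and phosphatidylethanolamine are the main membrane phospholipids of the hepatocyte. Both are made by the Kennedy pathway, in which choline or ethanolamine is phosphorylated by a kinase, activated with CTP and joined to diacylglycerol by a phosphotransferase. Phosphatidylserine is made in the endoplasmic reticulum by exchange of the head group of an existing phospholipid, and mitochondrial Pisd decarboxylates it to phosphatidylethanolamine. In liver, Pemt can methylate phosphatidylethanolamine to phosphatidylcholine, using S-adenosylmethionine, and the product is needed for bile and for lipoproteins.

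Array medians lay between 6.07 and 6.11 and correlations between arrays over all probe sets between 0.9935 and 0.9968, where probe sets are not independent replicates. The array of B6.C3H-6T replicate 3 had a mean correlation of 0.9962 within its strain and 0.9964 across strains. Hepatocyte markers were bright, with a list mean of 13.50 to 13.54 in B6.C3H-6T and 13.37 to 13.44 in C57BL/6J. The list of Kupffer and myeloid markers ran from 9.29 to 9.52 in B6.C3H-6T and from 9.58 to 9.86 in C57BL/6J. Of its 8 genes, 6 had an unadjusted p under 0.05 and 0 passed after adjustment in limma. Neither list overlapped between the strains. Nor did the means of lymphocyte markers (6.25 to 6.46 in B6.C3H-6T, 6.47 to 6.57 in C57BL/6J), of pancreas markers (6.33 to 6.39 in B6.C3H-6T, 6.24 to 6.31 in C57BL/6J) or, narrowly, of adipocyte markers (6.27 to 6.31 in B6.C3H-6T, 6.12 to 6.27 in C57BL/6J), while the other 6 lists overlapped. The part of these shifts in the results below was not tested. In whole liver, fewer cells of a type and less RNA per cell cannot be told apart. In the fit, 26 of 45037 probe sets passed at an adjusted p under 0.05, or 0.0577%, with 5 higher (0.0111%) and 21 lower (0.0466%), and 11 to 17 passed when each array in turn was left out. The strains did not overlap at 16.0% of probe sets, 9.58% higher and 6.44% lower in B6.C3H-6T.

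The Pisd family was read by 12 probe sets. The only probe set paired with Pisd alone was 1460585_x_at, and Pisd-ps3 alone had 5. Of the other 6, 5 were paired with Pisd-ps1 and Pisd-ps3, and 1 (1426387_x_at) with all 3 genes. Pisd-ps1 had no probe set of its own, so its level cannot be told apart from that of Pisd-ps3. By the maker's naming, a probe set ending in _x_at holds probes that can match other transcripts, one ending in _s_at is shared by several transcripts, and one ending in _a_at reads alternative transcripts of a gene. In the gene table of assembly GRCm38.p6, Pisd lies on chromosome 5 and Pisd-ps1 on chromosome 11, while Pisd-ps3 has no assigned chromosome. Ptdss1 lies on chromosome 13, Ptdss2 on 7, Pemt and Pcyt2 on 11, Pcyt1a on 16, Chka on 19 and Cept1 on 3. None of the 9 placed genes lies on chromosome 6, which carries the C3H DNA.

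Pisd-ps3 was higher in B6.C3H-6T at all 5 of its own probe sets, and by very unequal amounts. Probe set 1453145_at read 9.36, 9.52 and 9.27 in the B6.C3H-6T mice, against 7.48, 7.42 and 7.38 in the C57BL/6J mice. The gap between the strains exceeded the range within either, and the difference of 1.96 ± 0.08 (SE, n = 3 per strain; 3.89-fold) was the largest positive difference of all 45037 probe sets. Probe set 1429452_x_at read 8.19, 8.16 and 8.26 in B6.C3H-6T, against 7.29, 7.34 and 7.24 in C57BL/6J, which is a difference of 0.92 ± 0.07. The dimmest, 1453144_at, read 5.35, 5.64 and 5.40 in B6.C3H-6T and 4.55, 4.79 and 4.44 in C57BL/6J, a difference of 0.87 ± 0.11. All 3 of these probe sets rest on the same GenBank sequence, AK007420, so they are not independent readings of the gene. The strains did not overlap at any of them, against 16.0% of all probe sets. Since these values helped to choose the members, nothing is read from that.

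The remaining probe sets of Pisd-ps3 alone moved far less. Probe set 1434975_x_at read 9.82, 9.65 and 9.65 in B6.C3H-6T, against 9.55, 9.38 and 9.36 in C57BL/6J. Probe set 1439069_a_at read 10.50, 10.34 and 10.35 in B6.C3H-6T, against 10.15, 10.23 and 10.25 in C57BL/6J. The strains did not overlap at either (against 16.0% of all probe sets), from which again nothing is read. The differences were 0.28 ± 0.08 and 0.19 ± 0.07, or 1.21-fold and 1.14-fold. The readings paired with Pisd-ps3 alone thus spanned 0.19 to 1.96.

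**Figure D1:**
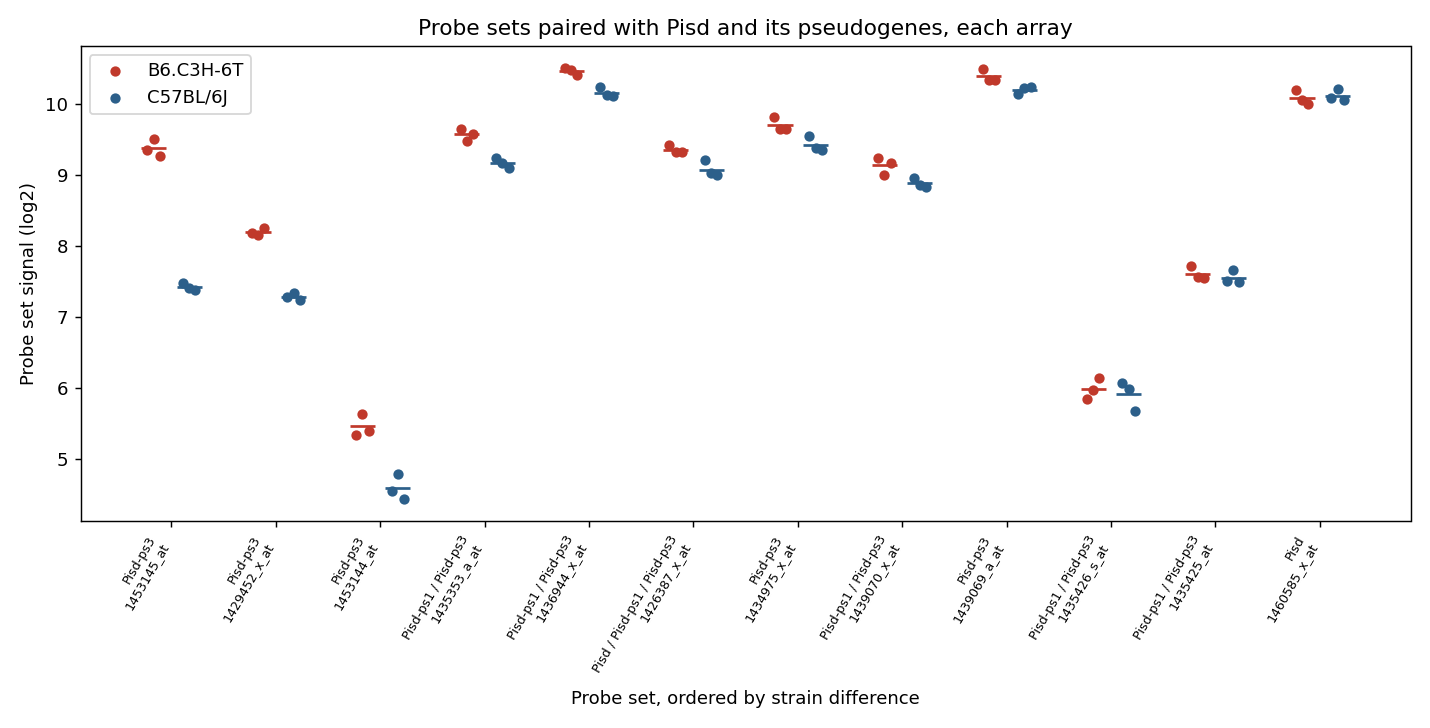
Signal (log2) of each of the 12 probe sets paired with Pisd or its pseudogenes, ordered by strain difference, with 1 point per mouse (3 B6.C3H-6T mice at left in red, 3 C57BL/6J mice at right in blue) and a line at each mean. The leftmost probe set of Pisd-ps3 shows means of 9.39 in B6.C3H-6T and 7.43 in C57BL/6J, while the rightmost, of Pisd, shows 10.09 in B6.C3H-6T and 10.12 in C57BL/6J.

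Over all 34 member probe sets, 3 passed the adjusted threshold, all 3 higher and all 3 of them the AK007420 probe sets of Pisd-ps3. The background was 0.0577% of all probe sets, or 0.0111% higher, and since these values helped to choose the members nothing is read from the count. The count was 2 without each array in turn but C57BL/6J replicate 2, without which it was 3. Differences without 1 array were 1.89 to 2.02 for 1453145_at, 0.89 to 0.94 for 1429452_x_at and 0.78 to 0.97 for 1453144_at.

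Pisd itself did not pass and lay close to 0. Probe set 1460585_x_at read 10.20, 10.06 and 10.01 in the B6.C3H-6T mice, against 10.09, 10.22 and 10.06 in the C57BL/6J mice. The strains overlapped throughout, with a mean of 10.09 ± 0.10 in B6.C3H-6T and 10.12 ± 0.09 in C57BL/6J (SD, n = 3 each). The difference was -0.03 ± 0.08 (SE; limma adjusted p = 0.912), and its 95% confidence interval ran from -0.21 to 0.14. Set beside it as values only, the probe sets of Pisd-ps3 alone differed by 0.19 to 1.96. Its sign was not settled, since leaving out C57BL/6J replicate 2 gave 0.02 and leaving out B6.C3H-6T replicate 3 gave 0.01.

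How far 1460585_x_at reads Pisd alone is limited by its origin. The annotation gives it the GenBank sequence AV212090, which is also that of 1435425_at and 1435426_s_at, both paired with Pisd-ps1 and Pisd-ps3. Probe set 1435425_at read 7.73, 7.57 and 7.55 in B6.C3H-6T, against 7.51, 7.67 and 7.50 in C57BL/6J. As at 1460585_x_at, replicate 1 was the highest of the B6.C3H-6T arrays and replicate 2 the highest of the C57BL/6J arrays. Its difference was 0.06 ± 0.08, and that of 1435426_s_at, which read 5.85, 5.98 and 6.14 in B6.C3H-6T and 6.08, 5.99 and 5.68 in C57BL/6J, was 0.07 ± 0.11. The strains overlapped at both.

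The likeness of these patterns was measured as the root mean square difference over the 6 arrays after each probe set was centred on its own mean. Among the other 11 family probe sets, 1435425_at was the nearest to 1460585_x_at, at 0.046. The difference 1460585_x_at minus 1435425_at was 2.47, 2.49 and 2.46 in the B6.C3H-6T arrays and 2.57, 2.55 and 2.56 in the C57BL/6J arrays. It was thus nearly constant within each strain. With each strain centred on its own mean, their root mean square difference was 0.010, and 9 of the other 45036 probe sets were nearer. Over all 6 arrays 879 were nearer. The third probe set of AV212090, 1435426_s_at, was less like 1460585_x_at, at 0.185 over the 6 arrays. With each strain centred it was at 0.178, the farthest of the family, so the readings of this sequence did not all follow one pattern. It was also the dimmest of the 3, at 5.99 in B6.C3H-6T and 5.92 in C57BL/6J (SD 0.15 and 0.21). The part of noise at low signal in this was not tested. Over all 6 arrays the 3 probe sets of AK007420 were the least like 1460585_x_at, at 0.472 to 1.002. These distances restate their strain differences, which helped to choose the members, so nothing is read from them. With each strain centred, 1429452_x_at was at 0.082, 1453144_at at 0.135 and 1453145_at at 0.105.

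**Figure D2:**
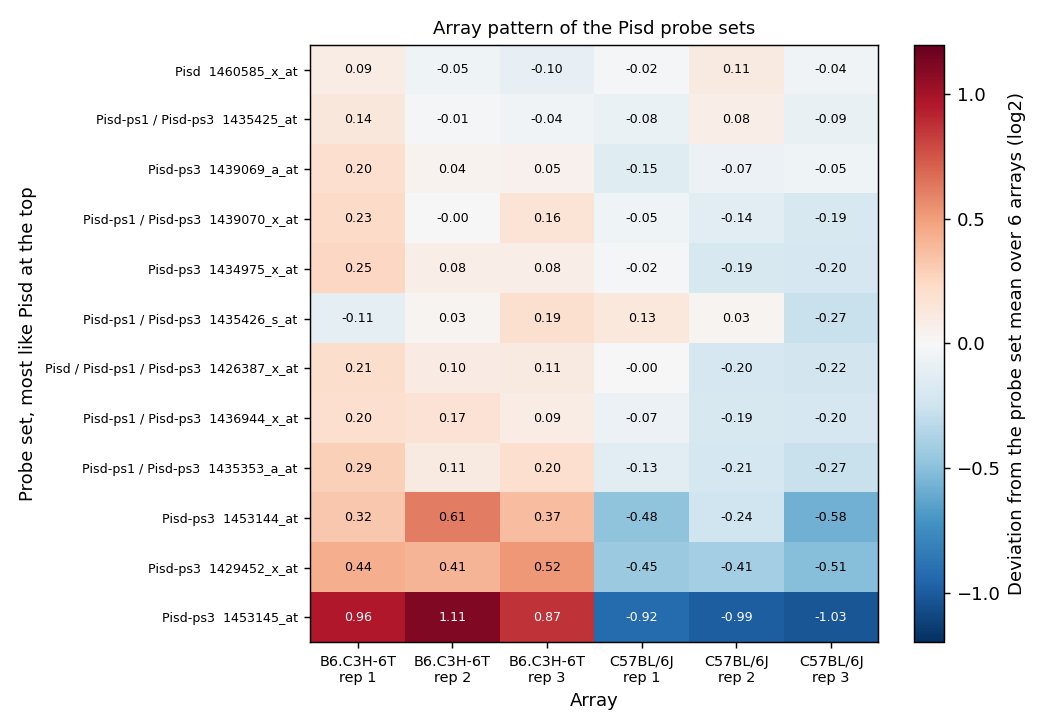
Deviation of each array from the probe set's own mean (log2; red above, blue below) for the 12 Pisd family probe sets, with B6.C3H-6T arrays at left, C57BL/6J arrays at right and the probe sets most like that of Pisd at the top. The Pisd row runs from -0.10 to 0.11 with no split between the strains, and the bottom row, 1453145_at of Pisd-ps3, runs from 0.87 to 1.11 in B6.C3H-6T and from -1.03 to -0.92 in C57BL/6J.

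The probe sets paired with several of the genes lay between these extremes. The probe set paired with all 3 genes, 1426387_x_at, read 9.43, 9.33 and 9.33 in B6.C3H-6T, against 9.22, 9.03 and 9.0 in C57BL/6J, a difference of 0.28 ± 0.08. Among those shared by the pseudogenes, 1435353_a_at read 9.66, 9.49 and 9.58 in B6.C3H-6T, against 9.25, 9.17 and 9.10 in C57BL/6J, a difference of 0.40 ± 0.07. Probe sets 1436944_x_at and 1439070_x_at differed by 0.30 ± 0.07 and 0.26 ± 0.08. The strains did not overlap at these 4 of the 6 shared probe sets, against 16.0% of all probe sets. None of the 6 passed the adjusted threshold in limma and 4 had an unadjusted p under 0.05, against 10.6% of all, from which nothing is read since Pisd-ps3 is among their genes. Grouped by GenBank sequence, the 3 probe sets of AV212090 spanned -0.03 to 0.07, the pair of BB006121 (1439069_a_at, paired with Pisd-ps3 alone, and 1439070_x_at, paired with both pseudogenes) 0.19 to 0.26, and the 3 of AK007420 0.87 to 1.96. Probe sequences were not used here, so which transcripts each probe set reads was not tested.

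The pattern of Pisd-ps3 was also set against single genes outside the 10. Its most changed probe set was nearest to a probe set of Etnppl, which encodes the lyase that breaks down phosphoethanolamine, at a root mean square difference of 0.464 over the 6 arrays. Next came 2 probe sets of Lpin1, a phosphatidate phosphatase gene that supplies diacylglycerol, at 0.505 each. They differed between the strains by 1.22 ± 0.28 and 1.16 ± 0.25, with B6.C3H-6T replicate 2 the highest array (11.06 and 10.78). The nearest of the 34 member probe sets was 1429452_x_at, at 0.533, and unnamed probe sets were not searched. Since the Pisd-ps3 probe set had the largest positive difference of all, those nearest to it would mostly be others with a large rise. These likenesses are therefore a description only, and a link between the genes was not tested. Nearest to Pisd were probe sets of Lsm11 and Pinlyp at 0.009 each and of Acaa2, a thiolase gene of fatty acid oxidation, at 0.013. All 3 had differences of -0.04 or -0.03 with overlap between the strains. The Pinlyp probe set was dim, at 4.72 in B6.C3H-6T and 4.76 in C57BL/6J. Of the other 45036 probe sets, 1198 lay within 0.05 of Pisd, and the median distance of all was 0.118. These likenesses too are a description only, and a link of these genes with Pisd was not tested.

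The nearest measured neighbours of Pisd on chromosome 5 were also close to 0. Ppp1cb and Yes1, on one side, differed by -0.02 ± 0.08 and -0.02 ± 0.07. Prr14l and Depdc5, on the other, differed by -0.01 ± 0.08 and 0.10 ± 0.07 (limma adjusted p = 0.638 to 0.979 over the 4). The strains overlapped at all 4, each read by its brightest probe set. Since Pisd-ps3 has no assigned place in the gene table, no neighbours are given for it.

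The 7 enzyme genes that make head groups were read by 22 probe sets, of which 0 passed in limma and 0 had an unadjusted p under 0.05, against 10.6% of all probe sets. The strains did not overlap at 4 of the 22 (18.2%, against 16.0% of all probe sets). Differences ran from -0.12 to 0.16 with a median of 0.02, which is also the median of all probe sets. At the levels and spreads of these arrays, the confidence intervals leave room for differences of up to 0.43 upward and 0.39 downward.

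The phosphatidylserine synthases lay close to 0. Ptdss1, which makes phosphatidylserine from phosphatidylcholine, read 9.99, 9.94 and 10.01 in B6.C3H-6T and 10.03, 10.07 and 9.99 in C57BL/6J at its brightest probe set, 1416372_at. The difference was -0.05 ± 0.06 (limma adjusted p = 0.818). At 1441866_s_at the B6.C3H-6T mice (9.27, 9.14 and 9.29) all lay below the C57BL/6J mice (9.43, 9.33 and 9.30), by -0.12 ± 0.07 (adjusted p = 0.576). The third probe set, 1449739_at, differed by 0.02 ± 0.08. Ptdss2, which makes phosphatidylserine from phosphatidylethanolamine, had 9 probe sets, 6 above 0 and 3 below, and the strains overlapped at every one. The brightest, 1434586_a_at, read 9.44, 9.41 and 9.37 in B6.C3H-6T and 9.43, 9.53 and 9.41 in C57BL/6J (-0.05 ± 0.07; adjusted p = 0.81). The widest difference, 0.16 ± 0.12, was at 1429492_x_at, the second dimmest of the 9.

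Pemt, the methyltransferase that turns phosphatidylethanolamine into phosphatidylcholine, read 11.84, 11.80 and 11.76 in B6.C3H-6T, against 11.73, 11.69 and 11.59 in C57BL/6J. Every B6.C3H-6T mouse lay above every C57BL/6J mouse, though the gap between the nearest was small and the difference of 0.13 ± 0.07 (1.09-fold) did not pass (limma adjusted p = 0.54). Its interval ran from -0.02 to 0.28.

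The CTP transferases, whose step sets the pace of the Kennedy pathway, gave positive differences throughout but did not pass. Pcyt1a, the enzyme of the choline branch, had 4 probe sets with differences of 0.09, 0.09, 0.11 and 0.12 (standard errors 0.06 to 0.08; limma adjusted p = 0.573 to 0.7). At 1424453_at it read 8.69, 8.85 and 8.74 in B6.C3H-6T, against 8.66, 8.68 and 8.58 in C57BL/6J. B6.C3H-6T replicate 2 was the highest of the 6 arrays at all 4, and the strains did not overlap at 2 of them. Pcyt2, the enzyme of the ethanolamine branch, read 11.60, 11.64 and 11.47 in B6.C3H-6T, against 11.53, 11.41 and 11.35 in C57BL/6J. The strains overlapped, and the difference was 0.14 ± 0.08 (adjusted p = 0.566).

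Chka, the choline kinase at the start of the pathway, had the widest spread between B6.C3H-6T mice of the 22 probe sets, with an SD of 0.32. Its brightest probe set, 1450264_a_at, read 8.06, 8.66 and 8.17 in B6.C3H-6T and 8.47, 8.31 and 8.32 in C57BL/6J, so that the C57BL/6J mice fell inside the range of the other strain. The difference was -0.07 ± 0.14 (limma adjusted p = 0.9), and it moved to 0.05 when replicate 1 of B6.C3H-6T was left out and to -0.25 when replicate 2 was. The other probe sets of Chka differed by 0.10 ± 0.11 and -0.05 ± 0.10. B6.C3H-6T replicate 2 was the highest of its strain at all 3. Cept1, the phosphotransferase that ends both branches, read 11.12, 10.94 and 11.02 in B6.C3H-6T and 10.97, 11.14 and 11.03 in C57BL/6J (-0.02 ± 0.08; adjusted p = 0.941).

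**Figure D3:**
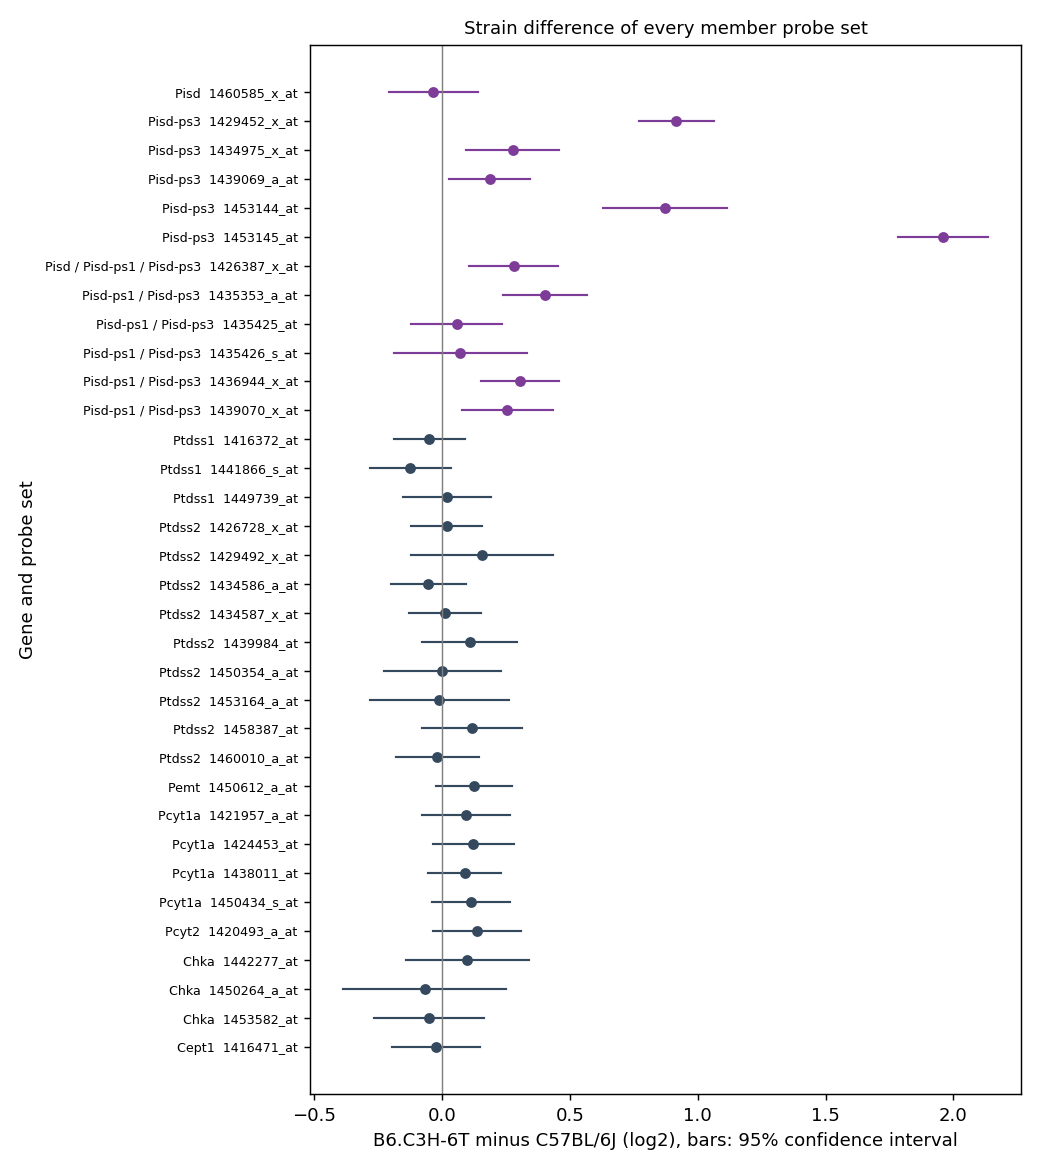
Strain difference (B6.C3H-6T minus C57BL/6J, log2) of all 34 member probe sets, with 95% confidence intervals from limma, the Pisd family in purple and the other enzymes in dark grey. The Pisd-ps3 probe sets reach 1.96, while the 22 probe sets of the other enzymes lie between -0.12 and 0.16.

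Genes around the head group enzymes were taken from lists of 75 genes, of which 69 had a probe set of their own, 156 in all. None of the 156 passed in limma, and 34 (21.8%) had an unadjusted p under 0.05, against 10.6% of all probe sets. Their median difference was 0.02, as for all probe sets. Without B6.C3H-6T replicate 2 the 34 became 15 (9.62%, against 6.53% of all probe sets in that fit), and without C57BL/6J replicate 3 they became 17 (10.9%, against 7.79%). The lists were chosen with earlier results of these data known, so nothing is read from these counts or from those of each list below. Each list is given with the 4 genes of smallest p, none of which passed.

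The other genes of the Kennedy pathway and of choline entry had 29 probe sets with a median of 0.02. Of these, 5 (17.2%, against 10.6% of all probe sets) had an unadjusted p under 0.05, 3 higher and 2 lower. Etnppl read 8.0, 8.54 and 8.04 in B6.C3H-6T, against 7.40, 6.88 and 7.0 in C57BL/6J at 1431406_at, with no overlap. The difference was 1.10 ± 0.17 (2.15-fold; limma adjusted p = 0.102, and 0.0689 to 0.406 without 1 array). At its brighter probe set, 1452975_at, the strains overlapped, with 10.95, 11.35 and 10.95 in B6.C3H-6T and 10.96, 10.37 and 10.65 in C57BL/6J, a difference of 0.42 ± 0.16. Chkb, the other choline kinase gene, read 9.95, 9.69 and 9.72 in B6.C3H-6T, against 10.10, 10.11 and 10.06 in C57BL/6J, a difference of -0.31 ± 0.08 (adjusted p = 0.307). The choline transporter gene Slc44a1 differed by 0.29 ± 0.11 and Selenoi, the ethanolamine phosphotransferase gene, by -0.36 ± 0.15, with overlap at both. The Selenoi difference was -0.22 when replicate 2 of B6.C3H-6T was left out.

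The list of genes that supply or use choline, or methyl groups such as Pemt uses, had 14 probe sets, 11 above 0, with a median of 0.17. Of the 14, 7 had an unadjusted p under 0.05, all higher, against 10.6% of all probe sets. The strains did not overlap at 8 of the 14 (57.1%, against 16.0% of all probe sets). Gnmt, the glycine methyltransferase that consumes S-adenosylmethionine, read 13.92, 14.13 and 13.86 in B6.C3H-6T, against 13.62, 13.60 and 13.49 in C57BL/6J, a difference of 0.40 ± 0.09 (limma adjusted p = 0.231). Nnmt, which methylates nicotinamide, read 10.74, 11.82 and 10.87 in B6.C3H-6T, against 10.23, 10.27 and 10.26 in C57BL/6J. Its difference was 0.89 ± 0.23, and 0.55 when replicate 2 of B6.C3H-6T was left out. Sardh, which oxidizes the sarcosine that Gnmt makes, differed by 0.34 ± 0.08. Ahcy, which clears the S-adenosylhomocysteine left by methyl transfer, differed by 0.25 ± 0.08. The strains did not overlap at these 4 genes. Hepatocyte markers had a mean difference of 0.11 and a median of 0.03, and their part in these values was not tested.

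Genes of CDP-diacylglycerol, phosphatidylinositol and cardiolipin synthesis had 22 probe sets with a median of 0.07. Of these, 5 (22.7%, against 10.6% of all probe sets) had an unadjusted p under 0.05, all higher. All 5 belonged to Cds2, a CDP-diacylglycerol synthase gene. Cds2 read 10.48, 10.47 and 10.30 in B6.C3H-6T, against 10.10, 10.10 and 9.97 in C57BL/6J at 1438957_x_at, with no overlap and a difference of 0.36 ± 0.08 (limma adjusted p = 0.231). All 6 probe sets of Cds2 were above 0, from 0.11 to 0.36. Tamm41 and Ptpmt1, which act on the mitochondrial route to cardiolipin, differed by 0.14 ± 0.08 and 0.15 ± 0.10, and Cds1 by 0.12 ± 0.07, with overlap at all 3. When B6.C3H-6T replicate 2 was left out, Tamm41 differed by 0.07 and Ptpmt1 by 0.05, and Cds1 differed by 0.06 when replicate 3 was. The other probe set of Tamm41 differed by -0.10 ± 0.07.

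Phospholipid acyl remodelling genes went both ways, with 41 probe sets and a median of -0.02. Of these, 6 (14.6%, against 10.6% of all probe sets) had an unadjusted p under 0.05, 2 higher and 4 lower. The phospholipase gene Pla2g6 differed by -0.43 ± 0.13, the secreted phospholipase gene Pla2g12a by -0.38 ± 0.14 and the acyltransferase gene Mboat7 by -0.22 ± 0.08. Lypla1, a lysophospholipase gene, differed by 0.20 ± 0.06 (limma adjusted p = 0.341 to 0.406 over the 4 genes). The brightest probe set of Pla2g6, 1431277_at, differed by only -0.015 ± 0.084, and 1431278_s_at by -0.157 ± 0.105. Without B6.C3H-6T replicate 2 the Pla2g12a difference was -0.20. The Mboat7 probe set given was dim, at 4.65 in B6.C3H-6T and 4.87 in C57BL/6J. Its brightest probe set, 1451066_at, differed by -0.169 ± 0.075, and 1 of the 3 probe sets of Mboat7 had the opposite sign (0.06 ± 0.09). Transfer and export genes had 50 probe sets and a median of -0.00. Of the 50, 11 had an unadjusted p under 0.05 (2 higher and 9 lower), against 10.6% of all probe sets. Pltp, the plasma phospholipid transfer protein gene, read 9.93, 9.60 and 10.22 in B6.C3H-6T, against 10.78, 10.43 and 10.24 in C57BL/6J, a difference of -0.57 ± 0.17 (adjusted p = 0.337). The flippase gene Atp8a1 differed by -0.30 ± 0.08 at its probe set of smallest p, with 5 of its 7 probe sets below 0. Its brightest probe set, 1433828_at, differed by 0.045 ± 0.1. The lipid transfer gene Vps13a differed by 0.24 ± 0.08 at its probe set of smallest p, but 3 of its 5 probe sets were below 0 (-0.11 to -0.03). Prelid1, which carries phosphatidic acid in mitochondria, differed by 0.16 ± 0.06, with all 5 probe sets above 0. Kupffer and myeloid markers had a median difference of -0.27, and their part in the lower values of Pltp was not tested.

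**Figure D4:**
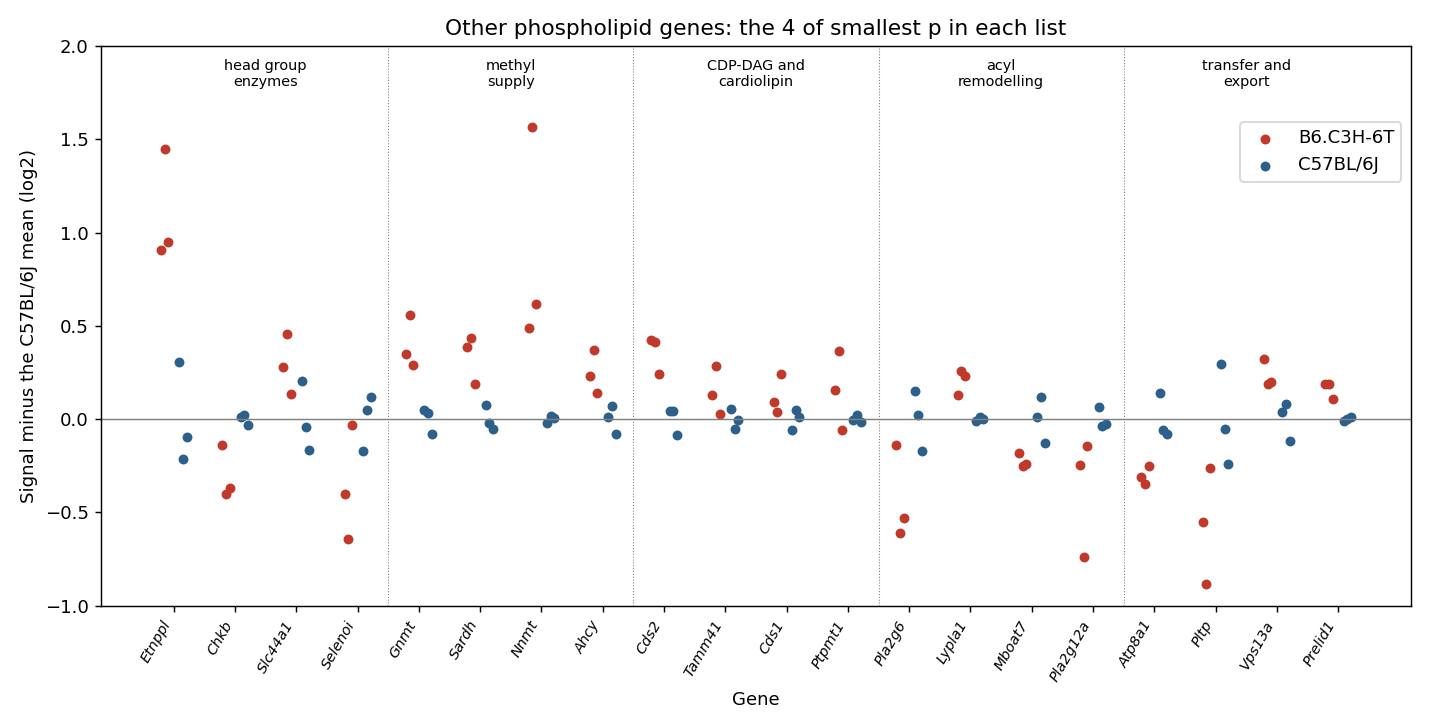
Signal of each mouse minus the C57BL/6J mean (log2) for the 4 genes of smallest p in each of 5 lists, with 3 B6.C3H-6T mice at left in red and 3 C57BL/6J mice at right in blue. Etnppl (1.10) and Nnmt (0.89) show the widest differences, and none of the 20 genes passed the adjusted threshold.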

How the data were processed

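Liver RNA was measured on Affymetrix arrays, 1 mouse per array, 3 B6.C3H-6T and 3 C57BL/6J. Per the labels' protocols, RNA was copied from an oligo(dT) primer and biotin-labelled by in vitro transcription, so signals weight the 3' end. The deposited values are log2 expression values made by the authors with RMA from affy, per the submitters' processing notes, without versions. Of 45101 probe sets, 64 controls were dropped. The platform annotation paired 34945 with 1 gene, 932 with several and 9160 with none, with symbols updated to GRCm38.p6. B6.C3H-6T was set against C57BL/6J in limma 3.58.1 (R 4.3.3; lmFit and eBayes, no covariate), adjusted over 45037 probe sets with a threshold of 0.05. The fit was also run on simulated data with independent probe sets, unlike real arrays, and nothing here rests on that run. No depth applies to arrays, and 3 per strain limit the precision. Members and lists were chosen with earlier results of these data known. Genes named were all probe sets of the 10 members, the 4 of smallest p in each list, the 3 probe sets of a single gene outside the 10 most like Pisd-ps3 and like Pisd, and the nearest neighbours of Pisd. List genes that share every probe set with another gene, or have none, were not analysed here. Replicate numbers follow accession order and pair no mice. The alternatives tried were centring of arrays, a filter on dim probe sets, other variance models, array weights, leaving out probe sets ending in _x_at or _s_at, and leaving out each array.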

Additional observations from a re-analysis of the deposited data

How the results depend on the processing

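The count of all called probe sets was 26, and 21 to 32 when arrays were centred or weighted, variances were modelled with a trend, or dim, _x_at and _s_at probe sets were left out, and 11 to 17 without 1 array. Without moderated variances limma called 0 of all probe sets, with 3841 (8.53%) at an unadjusted p under 0.05. It also called 0 of the 34 member probe sets, with 9 at an unadjusted p under 0.05. Nothing is read from the 9, since values of Pisd-ps3 helped to choose the members. The 3 called member probe sets were 2 to 3 under every other alternative, and no probe set of the pathway lists was called under any. The Pisd difference ran from -0.089 to 0.016 without 1 array. It had no value without _x_at and _s_at probe sets, which leaves Pisd unread. Small differences that never passed changed sign. With arrays centred, 1449739_at of Ptdss1 was -0.006, and of Ptdss2 1426728_x_at was -0.007, 1434587_x_at -0.013 and 1450354_a_at -0.024. With array weights, 1453164_a_at of Ptdss2 was 0.034 and Prr14l 0.015. Without 1 array the ranges that crossed 0 were -0.045 to 0.155 for 1435426_s_at of Pisd-ps1 and Pisd-ps3, -0.023 to 0.079 for 1449739_at of Ptdss1, -0.012 to 0.030 for 1434587_x_at of Ptdss2, -0.097 to 0.113 for 1450354_a_at of Ptdss2, -0.108 to 0.144 for 1453164_a_at of Ptdss2, -0.052 to 0.034 for 1460010_a_at of Ptdss2, -0.251 to 0.052 for 1450264_a_at of Chka, -0.115 to 0.036 for 1453582_at of Chka, -0.071 to 0.024 for 1416471_at of Cept1, -0.093 to 0.001 for 1453755_at of Lsm11, -0.089 to 0.019 for 1429835_at of Pinlyp, -0.087 to 0.005 for 1428145_at of Acaa2, -0.072 to 0.049 for 1426205_at of Ppp1cb, -0.068 to 0.011 for 1449090_a_at of Yes1 and -0.055 to 0.054 for 1434217_at of Prr14l. The cause of these changes was not tested. No paired analysis was possible because the labels give the mice no shared numbers. The number of arrays limits the precision.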
